A study of Mus musculus with 13 samples.

Results

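Id1, Id2, Id3 and Id4 are the 4 mouse genes of the inhibitor of DNA binding family, and all 4 were found by symbol among the 50508 genes listed in the UMI count tables, of which 30658 had a UMI in some well. Their levels were followed in single proprioceptors, the dorsal root ganglion neurons that report muscle length and force, from the embryo to the adult. Id proteins are helix-loop-helix proteins without the basic region that contacts DNA. They pair with E proteins, the common partners of basic helix-loop-helix (bHLH) transcription factors, and so keep bHLH activators off their sites. Id genes are well-known targets of BMP signals acting through Smad proteins, and in the nervous system they are best known from dividing progenitors and from glia.

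Fluorescent neurons were sorted singly into plates of 96 wells, and 13 plates with 1248 wells were used. In the adult (5 plates, postnatal day above 56), at P12 (4 plates) and at P0 (2 plates) the mice carried PV:Cre+/-, Rx3:Flp+/- and Ai65+/-, which give tdTomato to cells that have expressed both parvalbumin and Runx3. At E14.5 (2 plates) the reporter was TrkC:tdTomato, which marks neurons that express the neurotrophin-3 receptor, so reporter and stage cannot be told apart there. Both reporters also mark some neurons that do not serve muscle, and no source used here ties a plate to an animal: 6 mice were used for the adult, 4 for P12, 6 for P0 and 2 for E14.5, so p-values measure the spread between plates. The study sampled its adult neurons in fewer experiments than there are adult plates, so these plates are not each a separate experiment. Digestion took 16 min per enzyme step in the adult, 12 min at P12 and 10 min at P0 and E14.5, so digestion time cannot be told apart from stage between P0 and P12 or between P12 and the adult.

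The authors' annotation kept 586 neurons. These were 169 at E14.5, 55 at P0, 154 at P12 and 208 in the adult, with a mean of 11174, 41594, 30623 and 44511 UMIs. A further 551 wells had at least 2000 genes but are not in the annotation (1, 92, 216 and 242 in the same order). Per the study's methods wells were left out for satellite cell transcripts and neurons of very small clusters were dropped, and which reason holds for a given well is not given in the sources used here. Neurons with attached cells cannot be told apart there from other cells. All 13 plates share the same 96 well barcodes. Every gene of the proprioceptor list (Pvalb, Runx3, Ntrk3, Etv1 and Whrn) had UMIs in the kept neurons of each stage, with summed levels of 1688 CPM (UMIs of a gene per 1000000 UMIs of its neuron) at E14.5, 5023 at P0, 4222 at P12 and 3041 in the adult. For E14.5 the study proposes that clusters 3 and 4 are neurons other than proprioceptors. The Id genes together made up 0.0369% of the UMIs of kept neurons at E14.5, 0.0181% at P0, 0.00462% at P12 and 0.00626% in the adult.

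Id1 lies on chromosome 2 (152736251 to 152737410), Id2 on chromosome 12 (25093799 to 25096092), Id3 on chromosome 4 (136143822 to 136145392) and Id4 on chromosome 13 (48261116 to 48266028) of GRCm38. The 250 bases before the RefSeq start of Id2 (chr12:25096093-25096342, minus strand), Id3 (chr4:136143572-136143821, plus strand) and Id4 (chr13:48260866-48261115, plus strand) of GRCm38.p6 are shown. Id2 and Id3, but not Id4, were called higher in P0 cluster 2 and, at P12 and in the adult, in left-out wells with tendon organ markers. The calls in left-out wells were lost without the plate term and after thinning, as described below. Each sequence is written 5′ to 3′ on the strand of the gene, and capitals mark CCAAT and GGCGCC on either strand.
Id2: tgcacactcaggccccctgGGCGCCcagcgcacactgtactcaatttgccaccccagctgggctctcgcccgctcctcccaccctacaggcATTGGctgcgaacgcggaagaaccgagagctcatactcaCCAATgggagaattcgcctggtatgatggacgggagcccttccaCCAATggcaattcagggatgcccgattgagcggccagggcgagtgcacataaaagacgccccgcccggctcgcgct
Id3: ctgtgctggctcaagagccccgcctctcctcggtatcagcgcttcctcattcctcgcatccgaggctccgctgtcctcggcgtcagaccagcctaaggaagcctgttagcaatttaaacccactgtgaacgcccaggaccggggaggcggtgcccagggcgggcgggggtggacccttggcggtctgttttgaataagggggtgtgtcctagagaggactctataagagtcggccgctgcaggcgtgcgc
Id4: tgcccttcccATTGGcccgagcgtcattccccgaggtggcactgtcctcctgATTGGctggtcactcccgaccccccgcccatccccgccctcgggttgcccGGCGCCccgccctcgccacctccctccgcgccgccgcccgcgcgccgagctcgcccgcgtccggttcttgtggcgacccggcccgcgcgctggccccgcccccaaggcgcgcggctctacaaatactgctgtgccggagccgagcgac
CCAAT, the letters bound by nuclear factor Y, occurred 3 times before Id2, 2 times before Id4 and not before Id3, and 33.8% of the 32851 windows of this length in the RefSeq table hold it on either strand. GGCGCC, the core of a BMP-responsive Smad element, occurred once before Id2 and once before Id4, against 9.59% of all windows. CAGAC, a Smad3 and Smad4 motif, occurred 2 times before Id3 alone, against 42.2% of windows. The E-box CANNTG, which bHLH dimers contact, occurred once before Id2 and not before Id3 or Id4 (66.2% of windows), and TATAAA occurred in none of the 3 windows (12.4%). The windows of Id2, Id3 and Id4 contained 62.8%, 62.8% and 75.6% G and C, against a median of 52.4%.

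Levels are given as CPM of each neuron's own UMIs, averaged over the neurons of a plate. All 4 Id genes had their highest mean at E14.5 and fell from P0 to P12, and no step from P12 to the adult passed the test. At E14.5 the plate levels of Id2 were 139 and 108 CPM. At P0 they were 56.7 and 43.5, at P12 14.4, 24.0, 9.74 and 5.66, and in the adult 15.6, 20.8, 11.4, 22.8 and 7.06. Each embryonic plate lay above each P0 plate and each P0 plate above each P12 plate, while P12 and adult plates overlapped. Id2 is known for holding back the neuronal differentiation of progenitors. Id4 followed the same order, with 134 and 93.1 CPM at E14.5, 53.6 and 50.8 at P0, 18.6, 25.1, 12.4 and 9.66 at P12 and 18.7, 16.4, 15.7, 14.9 and 9.65 in the adult.

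Id1 was the scarcest in UMIs, at 47.0 and 30.5 CPM at E14.5 and 14.04 and 6.97 at P0. At P12 it stood at 4.56, 5.71, 0.766 and 0.349 CPM and in the adult at 0, 3.61, 1.84, 7.93 and 3.44. The stages E14.5, P0 and P12 did not overlap for Id1. Id3, often found with Id1 in vessels and glia, behaved differently at the first step. Its plates gave 82.3 and 61.9 CPM at E14.5 and 45.2 and 63.8 at P0, which overlapped. At P12 they gave 13.2, 35.1, 15.5 and 10.6, and in the adult 10.0, 15.2, 15.2, 37.7 and 41.1. As ratios of plate means, E14.5 was 3.69 times P0 for Id1, 2.47 times for Id2, 1.32 times for Id3 and 2.18 times for Id4. P0 was 3.69, 3.72, 2.93 and 3.18 times P12 in the same order.

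**Figure D1:**
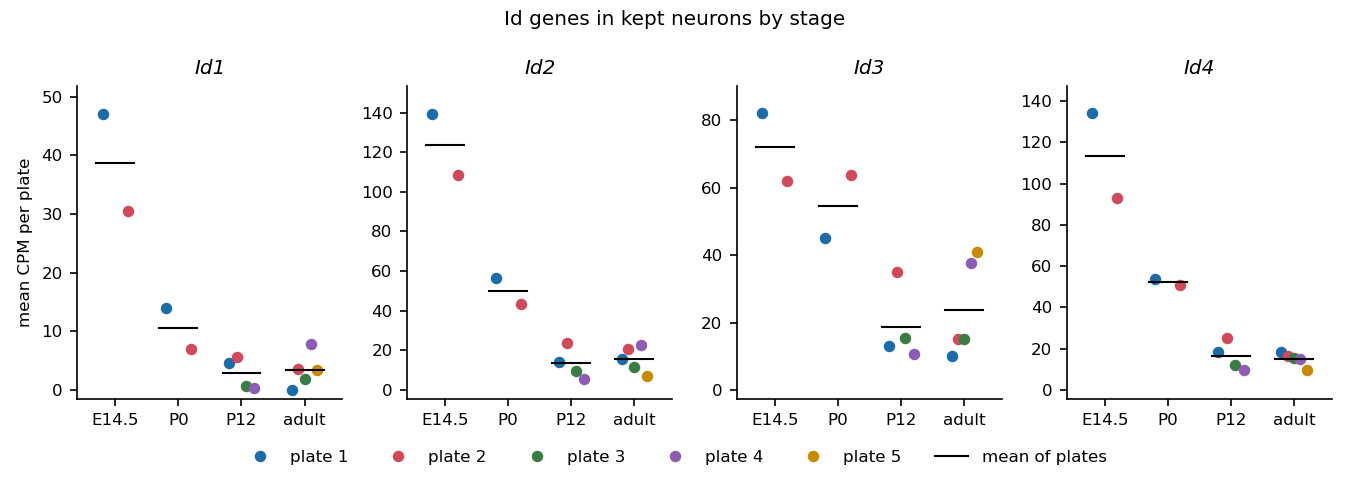
Level of each Id gene by stage in kept neurons, with CPM averaged over the neurons of a plate on the vertical axis. Points are plates, coloured by plate number within a stage, and black lines are the means of plates: Id2 falls from 124 at E14.5 to 50.1 at P0 and 13.5 CPM at P12.

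UMIs summed over the kept neurons of a plate were tested with edgeR's quasi-likelihood test, with p-values adjusted over all genes tested. From E14.5 to P0, Id2 fell by 1.31 on the log2 scale (SE 0.40, adjusted p = 0.0259) and Id4 by 1.12 (SE 0.30, adjusted p = 0.0122). Id1 gave -1.90 (adjusted p = 0.0501) and Id3 -0.38 (adjusted p = 0.627), so 2 of 4 passed, where 27.8% of the 11939 genes tested were called and 13.1% were called lower. Fewer plates ended both calls: Id2 had an adjusted p between 0.0666 and 0.144 without any 1 of the 4 plates of E14.5 and P0, and Id4 had 0.162 without E14.5 replicate 1, 0.0768 without P0 replicate 1 and 0.0916 without P0 replicate 2. With neurons thinned to 7000 UMIs neither passed (0.0518 and 0.0800). Id1 passed under 7 of the alternatives, among them DESeq2 size factors (0.0438) and no filter on low counts (0.00369).

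From P0 to P12, a step that shares the P0 plates with the one before, all 4 genes fell, against 18.1% of genes called and 9.01% called lower. The fall was 2.61 for Id1 (SE 0.85, adjusted p = 0.0444), 1.82 for Id2 (SE 0.38, adjusted p = 0.00447), 1.56 for Id3 (SE 0.48, adjusted p = 0.0353) and 1.82 for Id4 (SE 0.28, adjusted p = 4.63e-04), on the log2 scale. At P0, cluster 2, with 12 of the 55 neurons, held 21 of 25 Id1 UMIs, 93 of 123 Id2 UMIs and 94 of 134 Id3 UMIs, but 27 of 133 Id4 UMIs. The 35 neurons of P0 cluster 1 averaged 0.850 CPM of Id1, 14.1 of Id2 and 10.7 of Id3, against 2.85, 13.5 and 18.6 in all P12 neurons, whereas Id4 averaged 60.5 there and 16.4 at P12. Id4 stayed under the threshold whichever plate was left out. Id1 lost the call without 10 of the 13 plates taken singly, the exceptions being adult replicates 1 and 4 and P12 replicate 2, with an adjusted p of up to 0.222 without P0 replicate 1. Id2 lost it without P0 replicate 1 (0.0535) and with neurons thinned to 7000 UMIs (adjusted p = 0.0624), and Id3 without E14.5 replicate 2 (0.0556), P0 replicates 1 (0.0906) or 2 (0.229), or P12 replicates 1 (0.0674), 3 (0.0978) or 4 (0.0679). When left-out wells were added to the kept neurons no Id gene passed at this step, with differences of -0.54, -0.90, -0.19 and -0.79 for Id1, Id2, Id3 and Id4. From P12 to the adult the differences were 1.24 for Id1, 0.40 for Id2, 0.34 for Id3 and 0.14 for Id4 (adjusted p between 0.307 and 0.735), and none was called by edgeR, nor under an unadjusted p of 0.05 or by DESeq2, where 14.1% of genes were called.

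The share of neurons with a UMI moved with depth as well as with stage, so each neuron was also thinned to 7000 UMIs. After thinning, Id2 was found in 56.4% of neurons at E14.5, 23.8% at P0, 13.8% at P12 and 8.97% in the adult. For Id4 the shares were 49.3%, 35.6%, 8.67% and 6.58%, for Id3 34.1%, 21.2%, 9.84% and 7.97%, and for Id1 21.2%, 7.39%, 0% and 0.5%. As means of plates, thinned shares were lower at each later stage for Id2, Id3 and Id4. With thinned neurons pooled over plates, the adult exceeded P12 by 2.86 percentage points for Id2 and 1.11 for Id4, and both differences also changed sign without P12 replicate 2 (0.769 and 0.138). At full depth Id4 was found in 58.1%, 76.7%, 43.8% and 40.0% of neurons, with P0 above E14.5, and Id3 in 43.7%, 51.3%, 23.7% and 29.8%, both unlike the thinned order. Between the adult and P12 the thinned shares differed by 0.5, -4.87, -1.87 and -2.10 percentage points for Id1, Id2, Id3 and Id4. An exact permutation test over 5 and 4 plates (two-sided) gave p = 1, 0.508, 0.492 and 0.508, adjusted over the 4 genes to 1 and 0.677, with 0.0159 the smallest p it can give.

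Members were often found in the same neuron in the embryo and at birth. UMIs of at least 2 Id genes were found in 102 of 169 neurons at E14.5, 38 of 55 at P0, 25 of 154 at P12 and 56 of 208 in the adult. After thinning the counts were 78 of 151, 12 of 55, 5 of 152 and 8 of 208. The embryonic share was thus the highest of the 4 only after depth was made equal.

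In the adult, cluster 5, which the study assigned to tendon organ (group Ib) afferents, held the highest mean Id1, Id2, Id3 and Id4 of the 5 clusters, and cluster 1, assigned to group Ia spindle afferents, held little of any of them. The clusters were found by the authors in these same neurons, so a test describes how far plates repeat a difference and no more. Both clusters lie on all 5 plates, with 3 to 15 neurons of cluster 1 and 3 to 10 of cluster 5 on a plate. Id3 in cluster 5 stood at 41.5, 42.9, 95.1, 138 and 137 CPM on the 5 plates. In cluster 1 it stood at 1.80, 2.55, 7.54, 3.07 and 0 CPM. No plate of cluster 1 came near a plate of cluster 5. UMIs of Id3 numbered 149 in cluster 5 and 10 in cluster 1, a 26.2-fold ratio per UMI sequenced (95% interval 13.9 to 55.8, which like all such intervals here covers counting error only).

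Id2 in cluster 5 stood at 57.7, 72.1, 46.8, 45.8 and 30.0 CPM and in cluster 1 at 7.70, 10.8, 5.25, 7.98 and 0, again without overlap. The 99 and 21 UMIs gave an 8.30-fold ratio (5.14 to 13.99). Id4 stood at 20.2, 43.0, 54.1, 17.4 and 26.4 CPM in cluster 5 and 7.83, 3.82, 12.2, 13.9 and 5.26 in cluster 1, with every cluster 5 plate above every cluster 1 plate but with a smaller gap, and 59 against 34 UMIs gave a 3.05-fold ratio (1.97 to 4.80). Id1 was found in 10 of 31 neurons of cluster 5, at 0, 16.5, 13.6, 20.7 and 0 CPM. In cluster 1 it was found in 0 of 51 neurons, which allows a share of neurons with a UMI of up to 5.88%, and 25 UMIs against 0 make Id1 at least 14.7-fold higher in cluster 5 with a floor of 3 UMIs over the group.

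Against cluster 1, Id3 was higher in cluster 5 by 4.66 on the log2 scale (SE 0.49, adjusted p = 3.89e-06), Id2 by 2.97 (SE 0.41, adjusted p = 7.05e-05) and Id4 by 1.61 (SE 0.37, adjusted p = 0.0102). Of 7370 genes tested, 4.76% were called and 2.81% called higher. With 99 and 149 UMIs in cluster 5 against 21 and 10 in cluster 1, Id2 and Id3 passed the filter on low counts through the cluster where they are high, and a count of members called supports nothing here. Id1 had too few UMIs for the filter and has no test there. The Id4 call was lost without adult replicate 2 (1.13, adjusted p = 0.195) or 3 (adjusted p = 0.0865), and in neurons with few glial transcripts (1.70, adjusted p = 0.0515), an alternative added after the data were seen. The summed satellite glia list was 470 CPM in cluster 1 and 483 in cluster 5, the Schwann and myelin list 16.6 and 44.9 CPM, and the dissociation response list 236 and 257 CPM. The part of these in the Id differences was not tested beyond that alternative, in which Id2 and Id3 kept their calls.

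Clusters 2, 3 and 4, which the study took as presumptive group II spindle afferents, also held less Id2 and Id3 than cluster 5. Id3 was not found in any of the 28 neurons of cluster 4 (0 and 0 CPM on its 2 plates), which at a median of 20138 UMIs allows a share of neurons with a UMI of up to 10.7%, and cluster 5 was at least 16.7-fold higher. In cluster 2 Id3 stood at 0 and 3.76 CPM. Cluster 3 had more, at 28.7, 8.26, 14.1 and 9.15 CPM on 4 plates, all below the lowest plate of cluster 5. Id2 stood at 0 and 13.7 CPM in cluster 2, 0, 6.10, 20.9 and 4.80 in cluster 3 and 9.34 and 0 in cluster 4, also below every cluster 5 plate. Id4 gave another order, at 28.4 and 17.8 CPM in cluster 4, which overlapped cluster 5, against 11.1 and 9.83 in cluster 2 and 10.4, 11.4, 9.25 and 3.43 in cluster 3. The cluster 4 plates of Id4 lay above all those of clusters 1, 2 and 3.

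**Figure D2:**
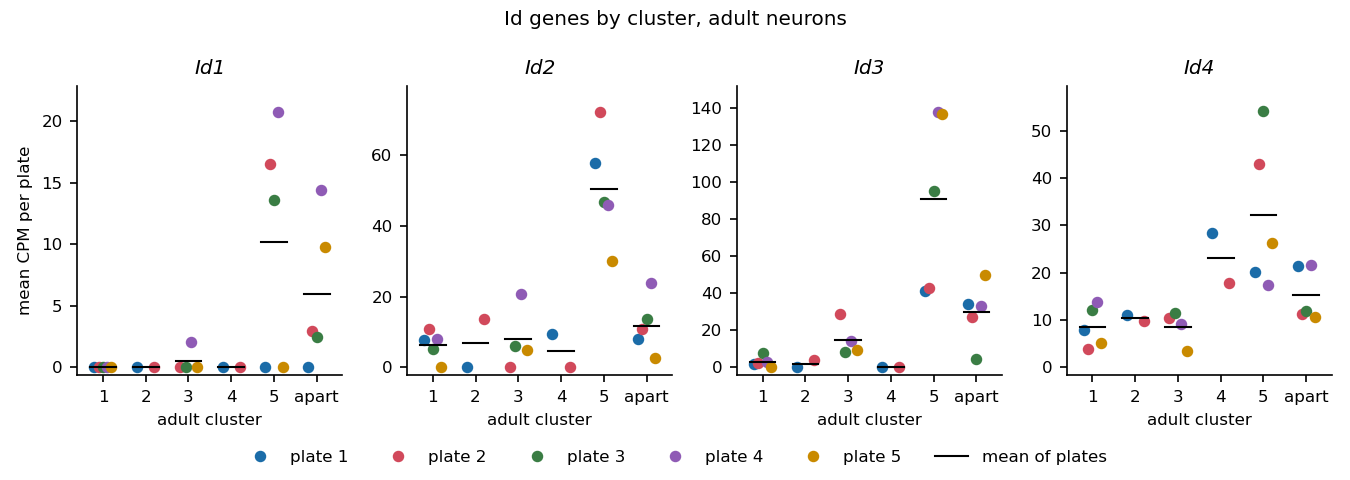
Level of each Id gene by adult cluster, in CPM averaged over the cluster's neurons within each plate, with points for plates that hold at least 2 such neurons and black lines for their means. Id3 averages 90.8 in cluster 5 and 2.99 CPM in cluster 1, and the Id4 points of clusters 4 and 5 overlap.

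Against the mean of clusters 1 to 4, cluster 5 was higher in Id2 by 2.66 (adjusted p = 6.27e-05), in Id3 (adjusted p = 1.18e-06, with no fold given because a cluster stands at 0) and in Id4 by 1.36 (adjusted p = 0.0175), where 4.03% of genes were called and 2.65% called higher. Here and for any difference among the clusters, Id2 and Id3 passed the filter on low counts through cluster 5, as above. A count of members called therefore supports nothing. Id4 lost the call without adult replicate 1 (0.0647), 2 (0.271) or 3 (0.119), in replicates 1 and 2 alone (0.151) and in neurons with few glial transcripts (0.0981). Between clusters 4 and 2, on the same 2 plates, none of Id2 (-0.64, adjusted p = 1), Id3 (at 0 in cluster 4) and Id4 (1.09, adjusted p = 0.871) was called by edgeR, by DESeq2 or at an unadjusted p under 0.05, where 0.136% of genes were called. Any difference among the 5 clusters was called for Id2 (adjusted p = 1.74e-04), Id3 (4.77e-06) and Id4 (0.0182), against 9.67% of genes, and Id4 lost this call without adult replicate 1, 2, 3 or 5. The 42 adult neurons that the annotation sets apart from the clusters held Id3 at 34.0, 27.4, 4.31, 32.9 and 49.7 CPM and Id2 at 8.09, 11.0, 13.7, 23.9 and 2.53 CPM.

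Within cluster 5 the members shared neurons. Id2 was found in 26 of 31 neurons, Id3 in 24, Id4 in 22 and Id1 in 10, and 9 neurons held all 4. At least 2 members were found in 24 of 31 neurons of cluster 5 and 10 of 51 of cluster 1, and Id2 and Id3 were found together in 21 neurons of cluster 5. After thinning to 7000 UMIs the counts with at least 2 members were 5 of 31 and 0 of 51.

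At P0 the same 2 genes stood out in cluster 2, which the study considered as possible tendon organ afferents. The study named Id1, Id2 and Id3 for P0 from these neurons, so their direction here is no independent evidence. Id2 stood at 187 and 126 CPM in cluster 2, 11.9 and 16.4 in cluster 1 and 52.2 and 42.5 in cluster 3. Id3 stood at 153 and 157 CPM in cluster 2, 5.89 and 15.5 in cluster 1 and 53.8 and 128 in cluster 3. Each plate of cluster 2 lay above each plate of the other clusters for both genes. Id1 followed with 45.8 and 23.1 CPM in cluster 2 against 0 and 1.70 in cluster 1, but overlapped cluster 3 (28.7 and 6.57). Id4 was lower in cluster 2 than in cluster 1 and higher than in cluster 3 in its levels, with 58.5 and 62.4 CPM in cluster 1, 52.8 and 33.0 in cluster 2 and 30.4 and 29.3 in cluster 3.

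All 12 neurons of P0 cluster 2 held UMIs of Id2 and of Id3 (12 of 12, exact binomial 95% interval from 73.5%), 6 of them held 3 members and 6 all 4. Per UMI sequenced, cluster 2 exceeded cluster 1 10.1-fold in Id2 (6.31 to 16.9), 18.8-fold in Id3 (10.3 to 37.6) and 25.2-fold in Id1 (6.15 to 221, from 21 and 2 UMIs). Over cluster 3 the ratios were 4.51 in Id2 (2.20 to 10.8), 1.30 in Id3 (0.846 to 2.06) and 4.07 in Id1 (0.996 to 35.8). Against the mean of clusters 1 and 3, Id2 was higher by 2.71 (SE 0.31, adjusted p = 6.78e-05) and Id3 by 2.26 (SE 0.34, adjusted p = 0.00135), and Id4 differed by -0.11 (adjusted p = 0.968). Of 5061 genes tested, 1.21% were called and 0.692% called higher. With 93 and 94 UMIs in cluster 2 against 22 and 12 in cluster 1, Id2 and Id3 passed the filter on low counts through the cluster where they are high. A count of members called supports nothing here either. Cluster 3 held 3324 CPM of the satellite glia list, against 108 in cluster 1 and 107 in cluster 2.

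At P12 the clusters fall on separate plates, clusters 2 and 3 on replicates 1 and 2 and clusters 1, 4 and 5 on replicates 3 and 4, so plate and cluster cannot be told apart between these sets. Within the first set, cluster 3 held more of Id1, Id2 and Id3 than cluster 2. Id3 stood at 19.7 and 45.6 CPM in cluster 3 and 4.06 and 0 in cluster 2, Id2 at 20.4 and 31.2 against 6.08 and 0, and Id1 at 7.83 and 7.42 against 0 and 0. Id4 stood at 16.4 and 29.9 CPM in cluster 3 and 21.5 and 9.05 in cluster 2 and overlapped. Id3 alone passed the filter on low counts, and not through cluster 2, where it is low. It was higher in cluster 3 by 3.52 (SE 0.98, adjusted p = 0.0395), and a count of members called supports nothing here. Its 35 and 2 UMIs gave a 12.4-fold ratio (3.19 to 106.6), and 3.91% of 6209 genes were called and 2.17% called higher. That contrast was added after the data were seen, and the call was lost without P12 replicate 2 (2.24, adjusted p = 0.423), with sums of at least 4 neurons (adjusted p = 0.209) and with DESeq2 (adjusted p = 0.224).

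In the second P12 set, Id3 stood at 24.6 and 7.10 CPM in cluster 1, 11.8 and 19.3 in cluster 4 and 6.56 and 0 in cluster 5. Clusters 1 and 4 overlapped and Id3 differed by -0.06 between them (adjusted p = 1.00 by edgeR, and not called by DESeq2 or at an unadjusted p under 0.05), where 0.966% of genes were called. This value rested on few reads, since 17 of the 28 Id3 UMIs of cluster 4 came from 1 neuron, and without replicate 4 the difference was 1.66. Id2 stood at 11.6 and 3.31 CPM in cluster 1, 7.64 and 11.3 in cluster 4 and 16.7 and 0 in cluster 5. Id4 stood at 12.2 and 9.96, 11.5 and 7.36, and 19.1 and 25.5 CPM in the same clusters. Any difference among the 5 clusters was called for Id3 (adjusted p = 0.0350), against 31.5% of genes, and was lost without P12 replicate 2 (adjusted p = 0.408).

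At E14.5, the stage with the highest mean of each member over kept neurons, no Id gene was called in the contrasts of clusters that were run. Id2 stood at 109 and 86.6 CPM in cluster 1, 122 and 119 in cluster 2 and 196 and 117 in cluster 3, with 96.1 CPM on the plate of cluster 4 that had more than 1 neuron. Id1 stood at 62.7 and 36.3 in cluster 1, 24.6 and 27.8 in cluster 2 and 73.2 and 39.2 in cluster 3. Of clusters 1 to 3, Id1 was thus lowest in cluster 2, where Id4 was highest on average. Id4 stood at 63.9 and 64.1 CPM in cluster 1, 162 and 120 in cluster 2 and 138 and 89.3 in cluster 3. Id3 stood at 73.2 and 61.7, 102 and 78.7, and 51.8 and 29.1 CPM in the same order. Cluster 4, with 6 neurons, stood at 0 CPM of Id1, Id3 and Id4 on that plate. That plate is its only sum in the tests, which therefore hold little information on cluster 4. Clusters 2 and 1 did not overlap for any of the 4 genes, and Id1 alone was higher in cluster 1.

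No Id gene was called between E14.5 clusters 1 and 2 (2.65% of 4912 genes were), with differences of 0.63 for Id1 (adjusted p = 0.911), -0.51 for Id2 (0.815), -0.44 for Id3 (0.899) and -1.31 for Id4 (0.0591). Id4 alone had an unadjusted p under 0.05, and DESeq2 called none. With the plate as a block Id4 was called lower in cluster 1 (-1.27, adjusted p = 0.0118), as it was with no filter on low counts (0.0175) and with sums of 1 neuron allowed (0.0201). Clusters 3 and 4 together against clusters 1 and 2 gave no call for Id1, Id2, Id3 or Id4 by edgeR or DESeq2 (adjusted p of 0.589, 0.939, 0.118 and 0.326, with an unadjusted p under 0.05 for Id3 and Id4), where 1.18% of genes were called.

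**Figure D3:**
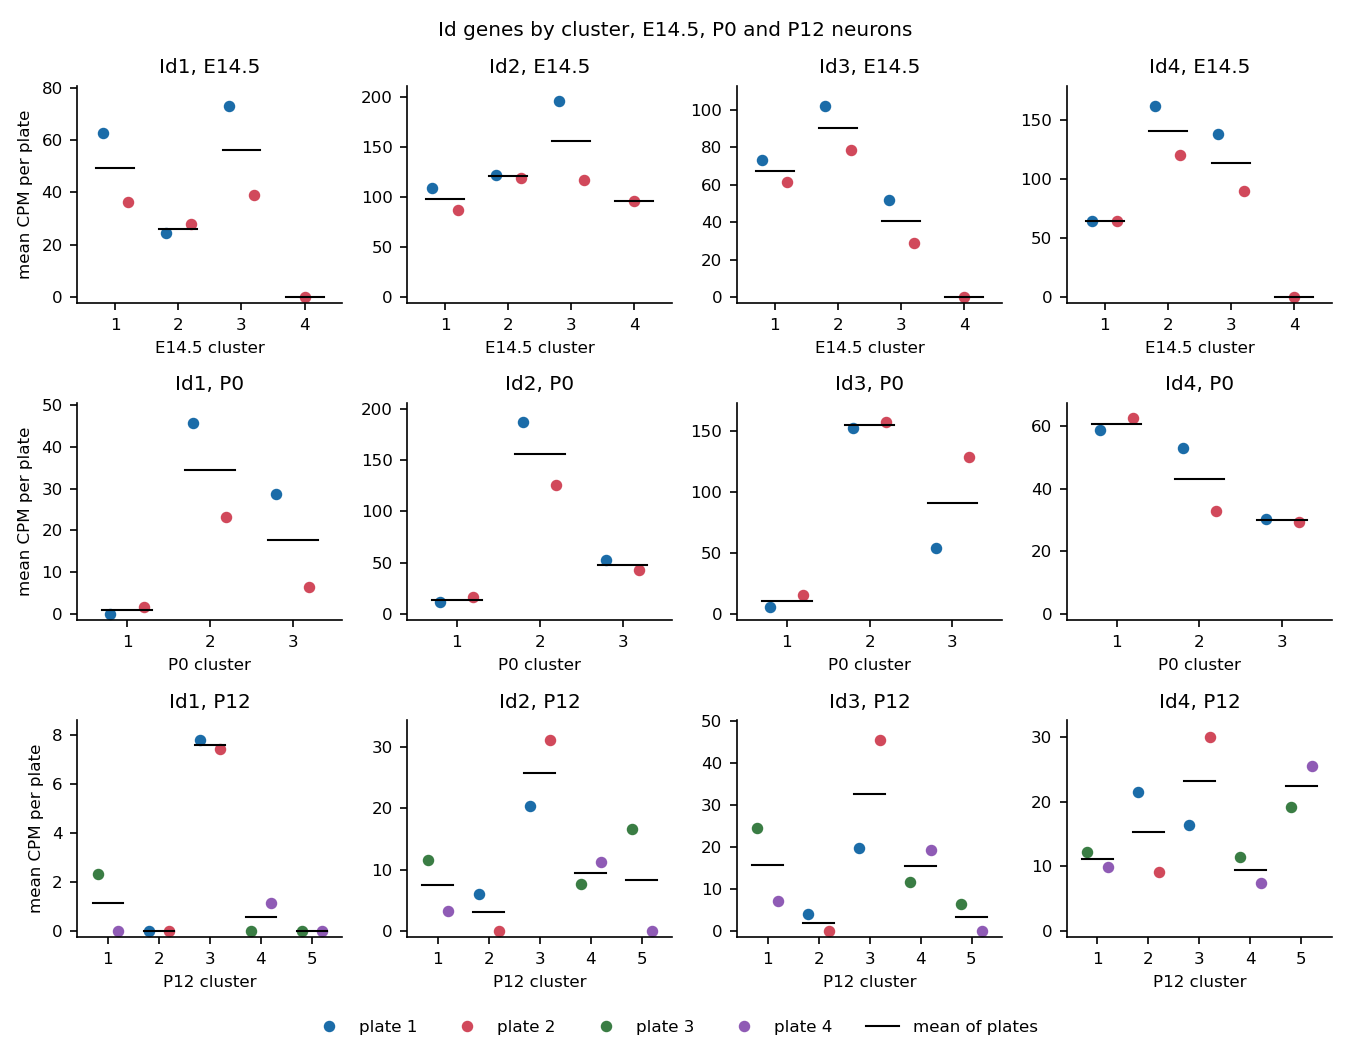
Levels of the Id genes by cluster at E14.5, P0 and P12, in CPM averaged over the cluster's neurons within each plate, with points for plates and black lines for their means. P0 cluster 2 stands above clusters 1 and 3 in Id2 and Id3, at 156 and 155 CPM, while the E14.5 clusters lie close together in Id2.

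The wells left out of the annotation gave a second set of cells on the same plates. Id3 was higher in them than in kept neurons in the adult and at P12. In adult left-out wells Id3 stood at 78.0, 73.3, 99.3, 114 and 168 CPM, against 10.0 to 41.1 in the kept neurons of the same plates. At P12 it stood at 106, 88.3, 85.3 and 65.1 CPM, against 10.6 to 35.1. Neither pair of ranges overlapped. At P0 the left-out wells held 113 and 72.9 CPM of Id3, against 45.2 and 63.8. Within plates, Id3 was higher in left-out wells by 2.16 in the adult (SE 0.16, adjusted p = 8.99e-11) and by 2.13 at P12 (SE 0.23, adjusted p = 1.67e-07), and the difference at P0 was 0.55 (adjusted p = 0.328).

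Id2 was also higher in left-out wells, by 1.08 at P12 (adjusted p = 0.00123) and 0.65 in the adult (adjusted p = 0.00548). Its levels were 37.0, 39.2, 25.1 and 20.8 CPM at P12 and 36.3, 25.9, 24.8, 28.6 and 14.48 in the adult, which overlapped those of kept neurons. Thinned to 7000 UMIs, Id2 differed by 0.29 at P12 (adjusted p = 0.939) and 0.87 in the adult (adjusted p = 0.231). Id4 was higher in the adult by 0.56 (adjusted p = 0.0235), at 26.3, 21.7, 24.8, 29.1 and 27.0 CPM, above every kept plate, but the call was lost without adult replicate 3 (0.0539), 4 (0.198) or 5 (0.0700), with DESeq2 (0.160), with no filter on low counts (0.0837) and after thinning (0.0832). At P12 Id4 stood at 36.2, 35.1, 13.1 and 13.1 CPM and differed by 0.60 (adjusted p = 0.0927). Id1 differed by 1.495 at P12 (adjusted p = 0.145) and 0.47 in the adult (adjusted p = 0.508), at up to 8.85 and 9.24 CPM on a plate.

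So 2 of 4 members were called at P12, where 8.31% of 12632 genes were called and 4.92% called higher, and 3 of 4 in the adult, where 15.3% were called and 8.81% called higher. At P0 none was called by edgeR or DESeq2 (differences of -0.79 for Id1, -0.05 for Id2, 0.55 for Id3 and -0.64 for Id4, of which those of Id3 and Id4 had an unadjusted p under 0.05), where 2.73% were called. Without the plate term the adult calls of Id2 (adjusted p = 0.333) and Id4 (0.243) were lost. The effect differed between the 3 stages for Id3 (adjusted p = 0.00672) and Id4 (0.0349) and was not called for Id1 (0.431) or Id2 (0.149), where 0.926% of genes were called. The Id3 call was lost without P0 replicate 2 (0.357), and that of Id4 without either P0 plate (0.307 and 0.361), adult replicate 3 or 4, or P12 replicate 1, 2 or 4.

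Glial transcripts moved with these differences. The satellite glia list stood at 3835, 7877 and 9758 CPM in left-out wells at P0, P12 and in the adult, against 584, 368 and 479 CPM in kept neurons. The Schwann and myelin list stood at 405, 462 and 465 against 82.1, 81.6 and 61.3 CPM, and the dissociation response list at 537, 375 and 673 against 248, 169 and 300 CPM. Their part in the Id levels of left-out wells was not tested.

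**Figure D4:**
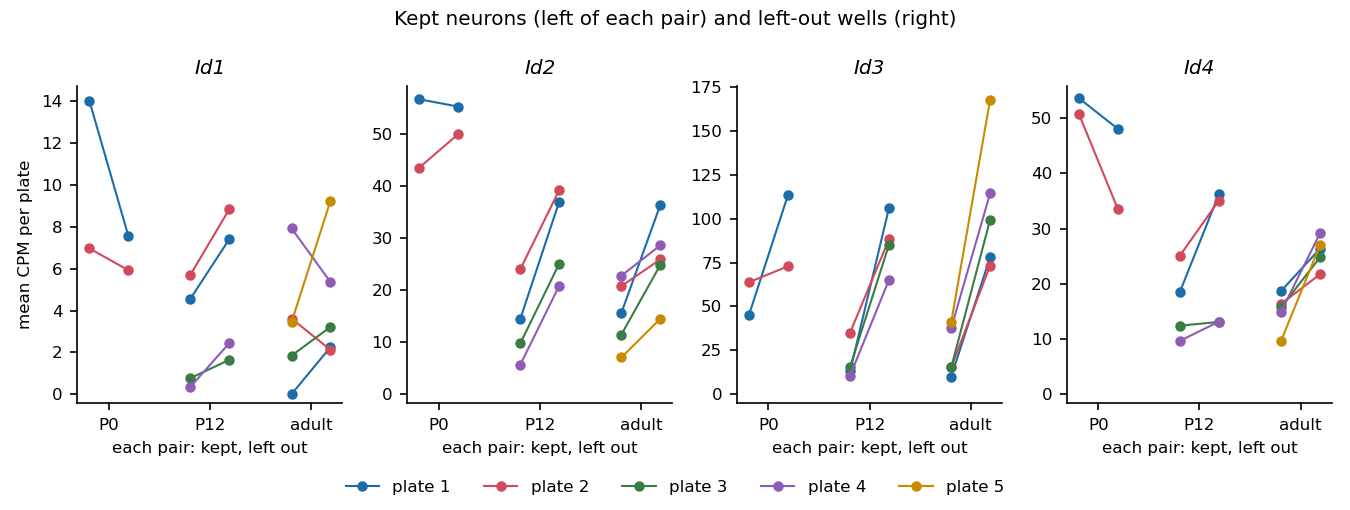
Level of each Id gene in kept neurons and left-out wells of the same plates at P0, P12 and in the adult, in CPM. Points are plates, and coloured lines join the points of the same plate. In the adult the 5 left-out points of Id3 lie between 73.3 and 168 CPM, above all kept points.

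The left-out wells took no part in the clustering, so they were divided by markers that the study examined in tissue, an alternative added after the data were seen. Tendon organ markers (Itga2, Chad, Pcdh17 and Pou4f3) led in a well if more of them than of the spindle markers (Hpse, Colq, Agpat4 and Calb2) had a UMI. Among kept adult neurons this put tendon organ markers first in 28 of 31 neurons of cluster 5 and spindle markers first in 49 of 51 of cluster 1. At P0 tendon organ markers led in 10 of 12 neurons of cluster 2 but also in 17 of 35 of cluster 1, where spindle markers led in 9. At P12 spindle markers led in 8 of 8 neurons of cluster 2 and 8 of 8 of cluster 5, and most neurons of clusters 1 (49 of 63) and 4 (41 of 58) had equal numbers. Cluster 3, with the most Id2 and Id3 at P12, was split into 6 neurons led by tendon organ markers, 5 by spindle markers and 6 with equal numbers. In the left-out wells tendon organ markers led in 70 wells, spindle markers in 54 and neither in 118 in the adult, 75, 53 and 88 at P12, and 49, 16 and 27 at P0. Id genes took no part in this division.

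Id2 in the adult stood at 60.2, 66.6, 48.3, 41.2 and 21.6 CPM where tendon organ markers led and 40.3, 24.8, 13.4, 31.8 and 15.7 where spindle markers led, higher on 5 of 5 plates although the ranges overlapped. Id3 stood at 103, 126, 192, 177 and 209 CPM against 46.4, 63.7, 61.5, 105 and 149, also higher on each plate. Id4 stood at 21.7, 35.2, 23.0, 32.4 and 15.3 against 20.9, 25.6, 24.8, 47.2 and 51.6 and was higher on 2 plates only. At P12 Id2 stood at 58.5, 62.5, 45.2 and 39.9 CPM against 32.4, 23.3, 21.9 and 0, and Id3 at 152, 99.0, 195 and 70.9 against 75.2, 75.6, 0 and 23.9, with only 2 and 4 spindle-led wells on replicates 3 and 4. At P0 Id2 stood at 64.4 and 65.6 CPM against 36.2 and 6.94, and Id3 at 114 and 88.1 against 67.1 and 25.9.

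With a term for each plate, Id2 was higher where tendon organ markers led by 1.24 in the adult (SE 0.28, adjusted p = 0.00502) and 1.42 at P12 (adjusted p = 6.67e-04), and Id3 by 0.87 (SE 0.20, adjusted p = 0.00672) and 1.02 (adjusted p = 0.00746). Id4 was called at neither stage (-0.13, adjusted p = 0.913, and 0.26, adjusted p = 0.910). So 2 of 3 members tested were called in the adult, where 4.63% of 8914 genes were called and 2.45% called higher, and 2 of 3 at P12, where the shares were 2.41% and 1.66%. At P0 Id2, Id3 and Id4 gave 1.48, 0.92 and -0.17 (adjusted p of 0.437, 1 and 1) with none called by edgeR or DESeq2, where 0.0449% of genes were called, and the unadjusted p of Id2 and Id3 was under 0.05. Any difference of this effect between stages was not called for Id2, Id3 or Id4 (adjusted p of 0.990 to 1.00), where 0.438% were called.

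Without the plate term all 4 calls were lost with differences of like size, at 1.25 for Id2 (adjusted p = 0.0689) and 0.82 for Id3 (0.396) in the adult and 1.43 for Id2 (0.0938) and 1.20 for Id3 (0.538) at P12. No member was called at either stage after thinning to 7000 UMIs, where Id3 had an adjusted p of 0.0721 in the adult and 0.290 at P12 and Id2 had too few UMIs for a test. Adult Id3 was also lost without replicate 3 (0.0963) and with DESeq2 (0.0650), P12 Id2 without replicate 2 (0.119), and P12 Id3 without replicate 1 (0.542) and with DESeq2 (0.101). The satellite glia list was 10940 CPM where tendon organ markers led and 8683 where spindle markers led in the adult, and 8169 and 6948 at P12. The Schwann and myelin list was 556 and 291 CPM in the adult. Their part in these differences was not tested.

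**Figure D5:**
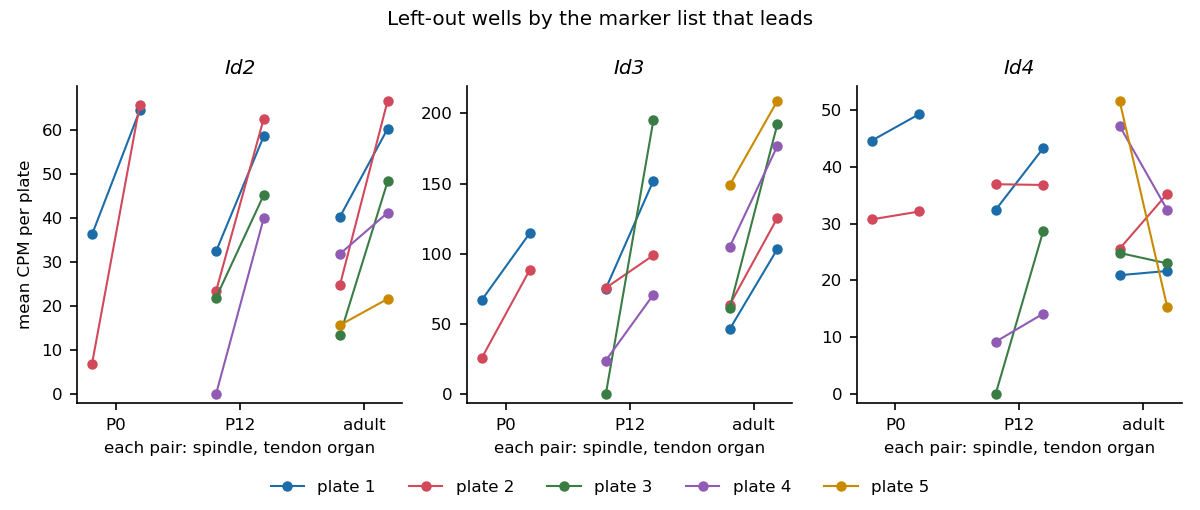
Levels of Id2, Id3 and Id4 in left-out wells in which tendon organ or spindle markers lead, in CPM, by stage. Points are plates, and coloured lines join the points of the same plate. On each plate Id2 and Id3 stand higher where tendon organ markers lead, as in adult replicate 3, where Id3 is 192 against 61.5 CPM.

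The genes around the Id family were taken from fixed lists of BMP and TGF-beta signals (18 in the tables), their receptors (15), Smads (6), inhibitors of the pathway (16), E proteins (3) and other bHLH factors (49), most of which were too scarce to test. From E14.5 to P0, where 27.8% of all genes were called, 1 of 5 signals tested was called, Gdf11, a ligand that slows neurogenesis, which fell by 1.94 (adjusted p = 0.0426). Of 11 receptors and co-receptors, Rgma, a BMP co-receptor, rose by 3.25 (adjusted p = 5.41e-04) and Rgmb fell by 1.47 (0.00152). Of 5 Smads, Smad2 fell by 1.35 (0.0204), and among inhibitors Fstl1, a secreted binding protein, fell by 2.62 (0.00495). Of 7 other bHLH factors Nhlh2, which marks young neurons, fell by 2.66 (0.0190), from 20.1 to 2.65 CPM on average. None of the 3 E proteins was called. The medians of the 6 lists ran from -1.02 for E proteins to 0, against 0.01 over all genes.

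From P0 to P12, where all 4 Id genes fell and 18.1% of all genes were called, 2 of 7 other bHLH factors rose and none fell: Hes1, a repressor downstream of Notch, by 1.90 (adjusted p = 0.00128) and Bhlhe40 by 2.16 (0.00398). Hes1 averaged 27.1 CPM at P0 and 109 at P12. Tcf4, 1 of the 3 E proteins with which Id proteins pair, rose by 1.56 (0.00601), from 8.88 to 27.2 CPM. Of 5 Smads, Smad9 rose by 1.57 (8.89e-04) and Smad1, which carries BMP signals, fell by 1.12 (0.00578). No receptor of 11 was called, 1 inhibitor of 6 rose (Fstl1, by 3.68, adjusted p = 5.83e-04), and 2 signals of 5 rose. One of these was Inhbb, a subunit of activin and inhibin, which had 0 UMIs in the kept neurons at P0 and 26.6 CPM at P12. The other was Tgfb1, at 0.337 CPM, from 1 UMI, and 13.5 CPM. Both passed the filter on low counts through the later stages, so no test is given for them and their calls support nothing here. From P12 to the adult, where 14.1% of all genes were called, Tcf4 rose by 0.77 (0.0296) and Fstl1 by 1.26 (0.0363), Hes1 fell by 0.88 (0.0196), and no signal, receptor or Smad was called. From P0 to P12 the medians of the lists ran from -0.67 for inhibitors to 0.19 for E proteins, against 0.02 over all genes.

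Between adult clusters 5 and 1, where 4.76% of all genes were called, 1 of 5 other bHLH factors was called, Scx, a tendon lineage factor, higher in cluster 5 by 2.01 (adjusted p = 0.0340) at 21.0 and 4.23 CPM. Tcf4, the one E protein tested, was higher in cluster 5 by 1.37 (0.0265). Both stood higher still in cluster 4, Scx at 33.7 CPM and Tcf4 at 75.1 CPM against 52.2 in cluster 5, and neither was called for cluster 5 against the mean of clusters 1 to 4, where 4.03% of all genes were called. Of 3 signals Inhbb was lower by 2.03 (7.86e-04), at 10.7 and 43.6 CPM, and of 3 receptors Rgma was lower by 2.14 (0.0427). None of 3 Smads or the 1 inhibitor was called, and medians ran from -0.84 for signals to 0.70 for other bHLH factors in the lists with more than 1 gene tested, against 0.0012 over all genes. At P0 (1.21% of all genes called), Hes1 was the one gene called of the 9 tested in these lists, higher in cluster 2 by 3.17 (5.49e-04), at 97.1 CPM against 4.07 in cluster 1 and 21.1 in cluster 3. At P12 (3.91% of all genes called) Hes1 was higher in cluster 3 than in cluster 2 by 2.45 (1.57e-04), where Inhbb was lower by 2.13 (0.00532) and Tgfb1 by 2.85 (0.0395), in 14 genes tested. Between E14.5 clusters 1 and 2 (2.65% of all genes called), Gdf11 (-2.35, 5.85e-04) and Fstl1 (-0.84, 0.0428) were lower in cluster 1, in 8 genes tested. Tgfb1, at 65.6 ± 56.0 CPM (SD, n = 2 plates) in P12 cluster 2, varied between plates.

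Against kept neurons 2.73%, 8.31% and 15.3% of all genes were called in left-out wells at P0, P12 and in the adult. Of the other bHLH factors, Hes1 was higher in left-out wells by 1.59 at P0, 0.46 at P12 and 1.36 in the adult, and Hey2 by 2.30, 2.41 and 2.98. The Hey2 values rest on few UMIs of kept neurons, 9, 23 and 36 against 70, 301 and 252 in left-out wells. Heyl had 0, 1 and 1 UMIs in the kept neurons of the 3 stages, against 30, 59 and 46 in left-out wells. Hes5 had 0 against 89 UMIs at P12 and 5 against 50 in the adult. Heyl and Hes5 passed the filter on low counts through the left-out wells, so no test is given for them. These factors are known as effectors of Notch signals. No signal of 6 was called at any stage. Of 11 receptors, Acvr2b was higher by 1.38 in the adult and Bmpr2 lower by 0.36 at P12. Tgfbr3 had 6 UMIs in kept neurons against 191 in left-out wells at P12, and 28 against 71 in the adult. Like Heyl and Hes5 it passed the filter through the left-out wells, and no test is given for it. Of 8 inhibitors, Bambi, a decoy receptor of the pathway, was higher in the adult by 1.22, at 10.1 CPM against 4.83, and Fstl1 was higher at P0 by 0.85 and lower at P12 by 0.28 and in the adult by 0.30. Of 5 Smads, Smad5 was higher by 1.28 and Smad9 lower by 0.46 at P12, and of 3 E proteins Tcf4 was higher by 1.27 at P0.

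Where tendon organ markers led in the left-out wells, 1 of 5 signals was called at P12 (2.41% of all genes called) and 2 of 5 in the adult (4.63%), all lower. Inhbb was lower by 1.16 at P12 and 1.39 in the adult, and Tgfb1 by 1.74 in the adult. Of 7 other bHLH factors, 3 were higher in the adult, Scx by 1.58, Hey2 by 1.19 and Hes1 by 0.74, and none was called at P12. Among inhibitors Fstl1 was higher by 0.74 at P12. No receptor of 8, Smad of 4 or E protein of 1 was called at either stage, and no listed gene was called at P0.

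Over the summed UMIs of the 17 clusters of the 4 stages, the gene most like Id1 in log2(CPM + 1) was Id2, with a Pearson r of 0.964 among 11939 genes. Next to Id1 came Pappa2 (0.914) and Coro1a (0.909), and next to Id2, after Id1, Pappa2 (0.884) and Ilf2 (0.877). Id3 was nearest to Rin2 (0.892), Bambi (0.869) and Slc12a7 (0.860), and Id4 to Zdhhc9 (0.924), Zfp536 (0.923) and Nup62 (0.921). Among members, r was 0.655 for Id1 and Id3, 0.586 for Id2 and Id3, 0.666 for Id3 and Id4, 0.376 for Id1 and Id4 and 0.339 for Id2 and Id4. By Spearman's rho Id2 was not among the 3 nearest to Id1, which were Aacs (0.938), Cct7 (0.931) and Coro1a (0.930), and Hotairm1 (0.897) came before Id1 (0.866) for Id2. The 17 clusters share stages, reporters, plates and depth, so these values describe likeness over stage as much as over cell class. Over the 18 adult sums of a cluster on a plate, Id2 was nearest to Blmh (0.889), Gclm (0.848) and Rpl14 (0.821), and Id4 to Rassf5 (0.852), Bcl2 (0.803) and Chodl (0.772). Id3 had an r of 0.861 with Sh3bgr and 0.828 with Sec11c, and Id2 and Id3 had an r of 0.726.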

How the data were processed

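The 4 Id genes and the gene lists around them were chosen with earlier results of these data known. The authors sequenced 13 plates by Plate-seq, aligned the reads to mm10 (GRCm38) with STAR (version not given in the sources used here), assigned them to wells by their barcodes and counted each UMI once. The deposited counts are whole UMI counts per gene and well, without normalization. The deposited annotation names the stage, plate and cluster of the kept neurons, which the authors had filtered on Mbp and Apoe and clustered with hicat.

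CPM, counts per 1000000 UMIs of a well, was computed here. UMIs were summed per plate, or per cluster and plate with at least 2 neurons, and tested with edgeR 4.0.16 (R 4.3.3), using TMM scaling, filterByExpr, glmQLFit and glmQLFTest, with Benjamini-Hochberg adjustment over all genes tested and a threshold of 0.05. Every adjusted p without another test named comes from edgeR. Left-out wells were compared with kept neurons with a term for each plate, since both sums come from 1 plate. Each plate yields all clusters found on it, and the fits between clusters have no plate term, after the study. DESeq2 1.42.0, other size factors, other filters, thinning to 7000 UMIs, a plate block and leaving out each plate were alternatives. matplotlib 3.10.9, pandas 2.3.3, scipy 1.17.1, numpy 2.4.6, Python 3.11.15 and limma 3.58.1 were also used. Of each list, the text names called genes, at most 4 by size of difference, and for each Id gene the 3 most alike; results for some of these genes are not reported here. The 22 E14.5, 45 P0, 14 P12 and 30 adult wells under 2000 genes were left out. Plate totals ran from 915750 UMIs at E14.5 to 5554918 at P12, and counts set the precision of scarce genes such as Id1.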

Additional observations from a re-analysis of the deposited data

Results flagged for a closer look

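Id1 in adult cluster 3 stood at 2.11 CPM on replicate 4 and at 0 on the 3 other plates with at least 2 neurons, which set that plate apart. The value is 1 UMI in 1 of the 41 neurons. In all, 31 groups of 4 to 10 plates were examined and 1 plate stood apart in this way. With the other plates at 0, any UMI sets a plate apart by this rule. The rule's chance of about 1 in 20 does not hold there.

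The difference between left-out wells and kept neurons varied with stage for Id3 (adjusted p = 0.00672 by edgeR), which was higher by 2.13 at P12 and 2.16 in the adult against 0.55 at P0, and for Id4 (adjusted p = 0.0349), at 0.60, 0.56 and -0.64 in the same order.

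Wells with fewer than 2000 genes entered no comparison but still held some Id UMIs, more than the 3 that a count of 0 allows: 5 of Id2 and 13 of Id4 at E14.5, and 8 of Id3 in the adult.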

How the results depend on the processing

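Over the tests of single Id genes, 692 of 796 values under an alternative kept their direction and their side of the threshold, 83 lost the call, 10 gained it and 11 changed sign. None of the values that changed sign had been called. These were Id3 from E14.5 to P0 with kept and left-out wells together (0.026), and from P12 to the adult Id2 (-0.20) and Id4 (-0.22) with those wells together, Id3 with neurons thinned (-0.39) and Id4 from -0.0092 to 0.24 when a plate was left out. Between P12 clusters 1 and 4 Id3 ran from -1.83 to 1.66 when a plate was left out. Between E14.5 clusters 3 and 4 and clusters 1 and 2, Id2 gave -0.016 with no filter on low counts and -0.76 thinned. Id2 in P0 left-out wells gave 0.0015 with no filter and -0.074 to 0.0024 when a plate was left out, and Id4 by marker lead in the adult gave -0.33 to 0.20. The difference of shares between the adult and P12 changed sign at full depth for Id1 (-3.05 points), Id2 (3.82) and Id3 (6.11), with at least 2 UMIs for Id2 (1.19) and Id3 (1.57), with plates pooled for Id2 (2.86) and Id4 (1.11), and ran from -8.48 to 0.769 for Id2 and from -3.76 to 0.138 for Id4 when a plate was left out.

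Of 287 counts of Id genes called, 241 stayed within 1.5 times. After thinning the counts were 0 at P0 against E14.5, 2 at P12 against P0, 1 each in left-out wells at P12, in the adult and between stages, and 0 by marker lead at P12 and in the adult. With kept and left-out wells together the count was 0 at P12 against P0. Without the plate block it was 1 in adult left-out wells and 0 between stages and by marker lead at P12 and in the adult. With the plate as a replicate block it was 1 between E14.5 clusters 1 and 2, and no other call between clusters changed, except that no Id gene could be tested so between P12 clusters 3 and 2. DESeq2 gave 0 between P12 clusters 3 and 2 and 1 by marker lead at P12 and in the adult. With no filter on low counts it was 2 between P12 clusters 3 and 2, 2 for any difference between P12 clusters and 1 between E14.5 clusters 1 and 2. Sums of at least 4 neurons gave 0 for both P12 comparisons, and sums of 1 neuron gave 1 for both E14.5 comparisons.

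Leaving out 1 plate gave 0 to 3 calls from E14.5 to P0, 1 to 4 from P0 to P12, 2 to 4 between adult clusters 5 and 1, 2 to 3 against the mean of clusters 1 to 4 and for any adult difference, 0 to 1 between P12 clusters 3 and 2, 0 to 2 for any P12 difference, 2 in P12 and 2 to 3 in adult left-out wells, 0 to 2 between stages, and 1 to 2 by marker lead at P12 and in the adult. No Id gene passed the filter after thinning in the adult, P12 and P0 cluster sums, where 1 UMI decides a value, and a plate cannot be left out of the P0 and E14.5 cluster fits, which then have no residual degrees of freedom. The causes of these changes were not tested beyond what the alternatives themselves change.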
